A study of Mus musculus with 2 samples.

Results

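Ccr2, a chemokine receptor, and the genes of its 3 CC chemokine ligands Ccl2, Ccl7 and Ccl12 were followed in sorted cells of mouse alveolar bone. The genes were found by their symbols, each in 1 row of both count tables, and are 4 of the 27998 genes listed there. The cells came from the bone around the first molar of C57/B6 J mice aged 8 weeks and were sorted as F4/80+CD11b+. In the OTM (orthodontic tooth movement) group a nickel-titanium coil spring had pulled the molar with about 30 g for 7 days, and the control group had no force. A total of 20 mice were divided between the groups for sequencing, and each group gave 1 library of 10x 3′ single-cell RNA sequencing. With 1 library a group there is no replicate check and no test between groups, and the intervals given below are 95% intervals that cover counting error only. The UMIs (unique molecular identifiers, 1 per captured transcript) of the ligands also sat in few cells, so they were not independent draws and the true spread is wider than these intervals.

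CCR2 is a G protein-coupled receptor that brings inflammatory monocytes out of the bone marrow and into inflamed tissue. CCL2, the best known of its ligands, is made by stromal, endothelial and myeloid cells, while CCL7 and the mouse chemokine CCL12 bind the same receptor. Classical monocytes are known for high CCR2, which falls as they mature into nonclassical monocytes or macrophages.

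The ligand genes lie near each other on the forward strand of chromosome 11 of GRCm38, Ccl2 at chr11:82035571-82037453, Ccl7 at chr11:82045712-82047525 and Ccl12 at chr11:82101845-82103400, within 67830 bases, with Ccl11 between the last 2. Ccr2 lies on the forward strand at chr9:124101950-124113557. Each ligand gene has 3 exons in the annotation (GENCODE vM21). The stretch of 66 coding bases around the adjacent cysteine codons that give the CC chemokines their name is shown here to let the 3 ligands be compared, read from the annotated transcripts 5′ to 3′ with those codons in capitals.
Ccl2: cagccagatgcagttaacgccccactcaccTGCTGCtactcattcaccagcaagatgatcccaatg
Ccl7: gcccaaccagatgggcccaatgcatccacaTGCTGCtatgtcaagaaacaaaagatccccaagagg
Ccl12: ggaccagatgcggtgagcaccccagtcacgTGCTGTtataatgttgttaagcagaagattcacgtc
The pair opens at codon 34 of Ccl2 and at codon 33 of Ccl7 and Ccl12, and Ccl12 spells its second cysteine differently. Over the aligned coding positions, gaps included, Ccl7 and Ccl12 were 64.6% identical (204 of 316). Ccl2 and Ccl12 were 51.9% identical (231 of 445) and Ccl2 and Ccl7 51.2% (228 of 445). The coding sequences have 444 bases in Ccl2, 291 in Ccl7 and 312 in Ccl12. The longer Ccl2 sequence lowers its percentages, so they do not rank the pairs. The longest exact run that transcripts of any ligand pair shared was 23 bases, well below the 98-base read, so the ligands could be counted apart.

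The analysis kept 2444 control cells with 10728381 UMIs (median 3675.5 a cell) and 1255 OTM cells with 7787159 UMIs (median 6053 a cell). The 4 genes and all other CC ligand and receptor genes were kept out of the genes used for clustering, which gave 12 control and 7 OTM clusters. The cells are labelled as macrophages, but 961 control and 480 OTM cells carried neutrophil or granulocyte progenitor markers, and 43 control cells carried B cell markers. The other 1440 control and 775 OTM cells were monocyte- or macrophage-like: classical monocyte-like (963 and 626), MHC class II-high (277 and 149) and, in control, nonclassical monocyte-like (149) and resident macrophage-like (51). No OTM cluster took the last 2 names at resolution 0.6, whereas at resolution 1 an OTM cluster of 50 cells took the nonclassical name, with 462 CPM Ccr2 and 377 CPM Ccl2 (CPM are the UMIs of a gene per 1000000 UMIs, both summed over the cells). Only Fcgr4 among the top 10 genes of that OTM cluster is on the nonclassical list, so the name is weak. Its leading genes Gm5483 and Hcar2 also led mature neutrophil-like clusters of OTM. The neutrophil transcript S100a8 was at 37197 CPM in it. At that resolution S100a8 was at 9363 CPM in the largest classical and 107658 CPM in the larger mature neutrophil-like cluster of OTM. The 51 resident macrophage-like cells were led by C1qa, C1qb, C1qc, Pf4 and Vcam1. Their mean score for the stromal and endothelial list was nevertheless slightly above that for the resident macrophage list (2.79 against 2.68, a mean z-score over clusters), with a summed level of 412 CPM for the 8 stromal and endothelial genes, led by Sparc at 251 CPM, against 15889 CPM for the 10 resident macrophage genes, led by Apoe.

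Ccr2 was a gene of classical and MHC class II-high cells. In classical monocyte-like cells its level was 476 CPM in control (457 to 496) and 482 CPM in OTM (462 to 502). In MHC class II-high cells it was 442 CPM (407 to 480) and 420 CPM (379 to 465). The intervals of all 4 values overlap, and the MHC class II-high to classical ratio was 0.929 in control (0.847 to 1.02) and 0.873 in OTM (0.781 to 0.974). Nonclassical monocyte-like cells held 128 CPM (101 to 159) and resident macrophage-like cells 114 CPM (76.1 to 163), 2 neighbours in the order whose intervals overlap. The resident macrophage-like level was 4.19-fold lower than the classical one (2.91 to 6.26), but with classes set cell by cell from marker UMIs, which put 229 cells in the resident class, the resident to classical ratio was 0.948 (0.852 to 1.05), so the gap held for the cluster of 51 cells and not for that wider class. Within the classical class the cycling clusters were lowest, with 341 CPM in control and 306 CPM in OTM, and the interferon-response cluster of the control was highest with 585 CPM (528 to 646).

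**Figure D1:**
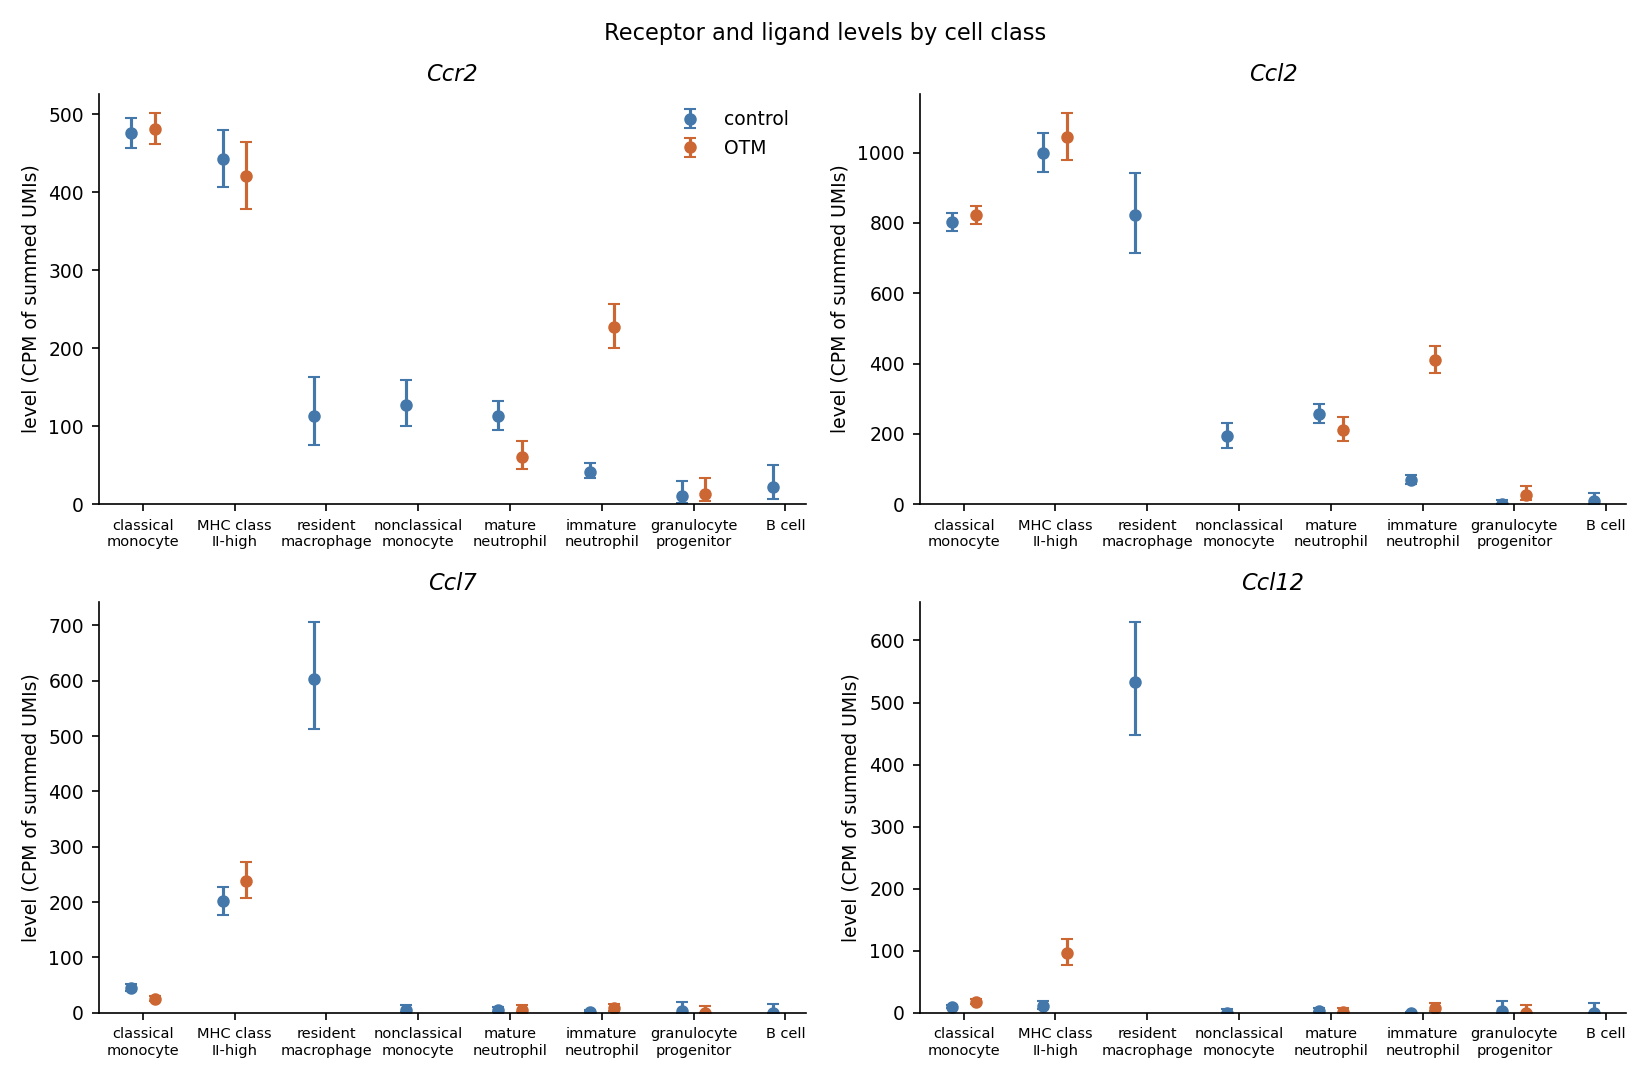
Level of each gene (vertical axis, CPM of UMIs summed over the cells of a class) by cell class, control in blue and OTM in orange, with exact Poisson 95% intervals for counting error. Ccr2 and Ccl2 stand high in classical and MHC class II-high cells, while Ccl7 and Ccl12 reach 604 and 533 CPM in the resident macrophage-like cells of the control.

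The share of cells that showed the receptor depended on depth. Before any correction 82.8% of control and 91.1% of OTM classical cells had a Ccr2 UMI. After each cell was thinned to 1500 random UMIs, which every kept cell had, the shares were 51.8% (48.6 to 55.0, exact Clopper-Pearson) and 47.8%. At that depth 42.2% of control and 38.3% of OTM MHC class II-high cells had a Ccr2 UMI, but only 3 of 51 resident macrophage-like cells (5.88%, 1.23 to 16.2). The lowest shares were those of 2 other classes: 1 of 43 B cell-like cells (2.33%, 0.0589 to 12.3) and 0 of 34 and 0 of 45 granulocyte progenitor-like cells had a Ccr2 UMI. The part of free RNA in any of these shares was not tested. The draw was low for the resident macrophage-like cells: as the mean over all possible thinnings, 5.97% of them had the receptor without a ligand and 6.04% had both, beside Ccr2 shares of 4.20% in B cell-like and 2.13% and 1.93% in granulocyte progenitor-like cells. On all UMIs 15 of the 51 cells had a Ccr2 UMI. The level of 114 CPM in the 51 cells lay above that of B cell-like cells (21.5 CPM, 6.99 to 50.2). It also lay above that of the granulocyte progenitor-like cells of the control (interval 2.07 to 29.3 CPM). It was level, however, with the 113 CPM (95.6 to 133) of the mature neutrophil-like cells of the control.

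Ccl2 followed the receptor in part and left it in the resident macrophage-like cluster. Its level was 803 CPM in control (778 to 828) and 823 CPM in OTM classical cells, and 999 CPM (945 to 1055) and 1043 CPM (978 to 1112) in MHC class II-high cells. Resident macrophage-like cells held 823 CPM (715 to 942), a ratio to control classical cells of 1.03 (0.888 to 1.18), and nonclassical cells held 193 CPM (160 to 231). B cell-like cells held 8.61 CPM (1.04 to 31.1), and the granulocyte progenitor-like cells of the control had no Ccl2 UMI, where 3 UMIs would be 10.0 CPM. By clusters, then, the resident class was low for the receptor and level with classical cells for Ccl2, and the nonclassical class was low for both. The count of Ccl2 UMIs per Ccr2 UMI was 1.69 in control and 1.71 in OTM classical cells, 2.26 and 2.48 in MHC class II-high cells, 1.51 in nonclassical cells and 7.24 in resident macrophage-like cells. Among the OTM classical clusters Ccl2 was lower in the cluster led by Saa3 and Chil3 (658 CPM, 625 to 692) than in the cluster led by Rnase6 and Ifi202b (1101 CPM, 1050 to 1153), with Ccr2 at 522 and 511 CPM in the same clusters.

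Ccl7 and Ccl12 stood highest in the resident macrophage-like cells. Ccl7 was at 604 CPM there (512 to 707), at 201 CPM (178 to 227) in control MHC class II-high cells, at 45.2 CPM (39.5 to 51.7) in control classical cells and at 4.91 CPM (1.01 to 14.4) in nonclassical cells. The order of these 4 levels was clear of their counting intervals at every step. Ccl12 was at 533 CPM in resident macrophage-like cells (447 to 631), at 11.5 CPM in MHC class II-high cells (6.45 to 19.0) and at 9.71 CPM in classical cells (7.13 to 12.9), and no Ccl12 UMI was seen in nonclassical cells, where 3 UMIs would be 4.91 CPM. In OTM, MHC class II-high cells held 238 CPM of Ccl7 (207 to 272), 9.52 times the classical level with a lower bound of 7.57, beside 4.45 times in control (3.70 to 5.34). The Ccl12 level of OTM MHC class II-high cells was 96.8 CPM (77.5 to 119) and that of OTM classical cells 18.2 CPM. The control MHC class II-high and classical values of Ccl12 did not differ beyond counting error (ratio 1.19, 0.616 to 2.16).

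Resident macrophage-like cells made up 2.38% of the control UMIs yet held 67.0% of the Ccl12 UMIs and 23.7% of the Ccl7 UMIs, against 3.51% of the Ccl2 and 0.900% of the Ccr2 UMIs. Over classical cells the ratio was 54.9 for Ccl12 (39.1 to 78.2) and 13.3 for Ccl7 (10.8 to 16.5), and with classes from marker UMIs it was 14.9 (9.30 to 24.7) and 4.64 (3.65 to 5.91). Few cells carried these counts. The richest resident macrophage-like cell held 64 of 136 Ccl12 UMIs, the richest for Ccl7 held 62 of 154 UMIs, and with the richest cell of each class left out the ratios were 37.1 and 9.19. Since stromal and endothelial genes were also seen in this class, the cells were split by them: the 33 cells with a C1q UMI and no stromal or endothelial marker UMI held 145 of the 154 Ccl7, 109 of the 136 Ccl12 and 164 of the 210 Ccl2 UMIs. The levels in these 33 cells were 969, 729 and 1096 CPM.

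Most UMIs of the 4 genes lay in the monocyte- and macrophage-like cells. Monocyte- and macrophage-like cells had 65.3% of control and 71.7% of OTM UMIs, but 92.7% and 89.6% of the Ccr2, 92.1% and 88.3% of the Ccl2, 98.3% and 96.2% of the Ccl7 and 97.5% and 94.5% of the Ccl12 UMIs. Over all neutrophil- and progenitor-like cells, Ccr2 was at 66.2 CPM in control and 139 CPM in OTM and Ccl2 at 135 and 288 CPM. With the other reading of the cell filter (at least 200 genes a cell) the order turned, with Ccr2 at 33.1 CPM in control and 25.7 CPM in OTM and Ccl2 at 60.6 and 43.2 CPM. Mature neutrophil-like cells also had the lower Ccr2 level in OTM with the main filter (113 and 60.9 CPM, ratio 0.539, 0.380 to 0.752). At 1500 UMIs a Ccl2 UMI was found in 6.66% and 8.75% of all neutrophil- and progenitor-like cells, against 40.8% and 42.2% of monocyte- and macrophage-like cells.

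The Ccl2 to Ccr2 count ratio of neutrophil- and progenitor-like cells (2.03 in control and 2.07 in OTM) lay near that of monocyte- and macrophage-like cells (1.85 and 1.82), and the part of free RNA from the latter in these counts was not tested. The immature neutrophil-like cells of OTM stood apart from those of control. They held 227 CPM Ccr2 (200 to 256) and 411 CPM Ccl2 (375 to 450), against 41.9 and 69.3 CPM in control. A single OTM cell held 169 of the 464 Ccl2 UMIs, and without it the OTM level was 263 CPM. At resolution 1 the OTM cluster of that name had 135 cells, down from 214, with 116 CPM Ccr2 and 507 CPM Ccl2. The monocyte- and macrophage-like cells of OTM rose from 775 to 824 at that resolution. They then included the 50 cells that took the nonclassical name, with 462 CPM Ccr2 and 377 CPM Ccl2. Whether those 50 cells came from the cluster of 214 was not tested. Monocyte genes moved with the values at resolution 0.6. Csf1r, the macrophage growth factor receptor, was at 101 CPM in the OTM cluster and at 24.2 CPM in the larger control cluster, and the 8 classical monocyte markers, all detected in both, summed to 3997 and 1851 CPM. With the other cell filter the immature neutrophil-like cells held 26.8 CPM Ccr2 in OTM and 24.4 CPM in control, and Ccl2 39.4 and 33.3 CPM, so the gap between libraries was not seen there.

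The 4 genes differed in how their UMIs were spread over cells. Ccr2 never passed 15 UMIs in a control cell or 18 in an OTM cell, and 289 control and 187 OTM cells held 50% of its UMIs. For Ccl2 the richest cells held 97 and 169 UMIs, and 141 and 62 cells held 50% of the total. For Ccl7 this took 13 control and 4 OTM cells, and for Ccl12 4 and 3 cells. The UMIs of the receptor were thus less concentrated than those of the ligands, above all those of Ccl7 and Ccl12. A single OTM cell held 105 Ccl7 UMIs, 30.5% of that library's total, and a single control cell held 31.5% of the Ccl12 UMIs.

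Receptor and ligand were then looked for in the same cells. At 1500 UMIs, 23.5% of control monocyte- and macrophage-like cells had a Ccr2 UMI only, 22.6% had UMIs of a ligand only, 20.8% had both and 33.1% had neither. In OTM the shares were 26.1%, 23.4%, 19.9% and 30.7%. Before thinning both were found in 47.9% of control and 59.5% of OTM cells, so cells with receptor and ligand together were common in either library. Resident macrophage-like cells differed: 25 of 51 had a ligand only, 2 had both and 1 had the receptor only. On all UMIs 21 had a ligand only, 11 had both and 4 had the receptor only, so that the receptor was seen in more of them than after thinning.

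**Figure D2:**
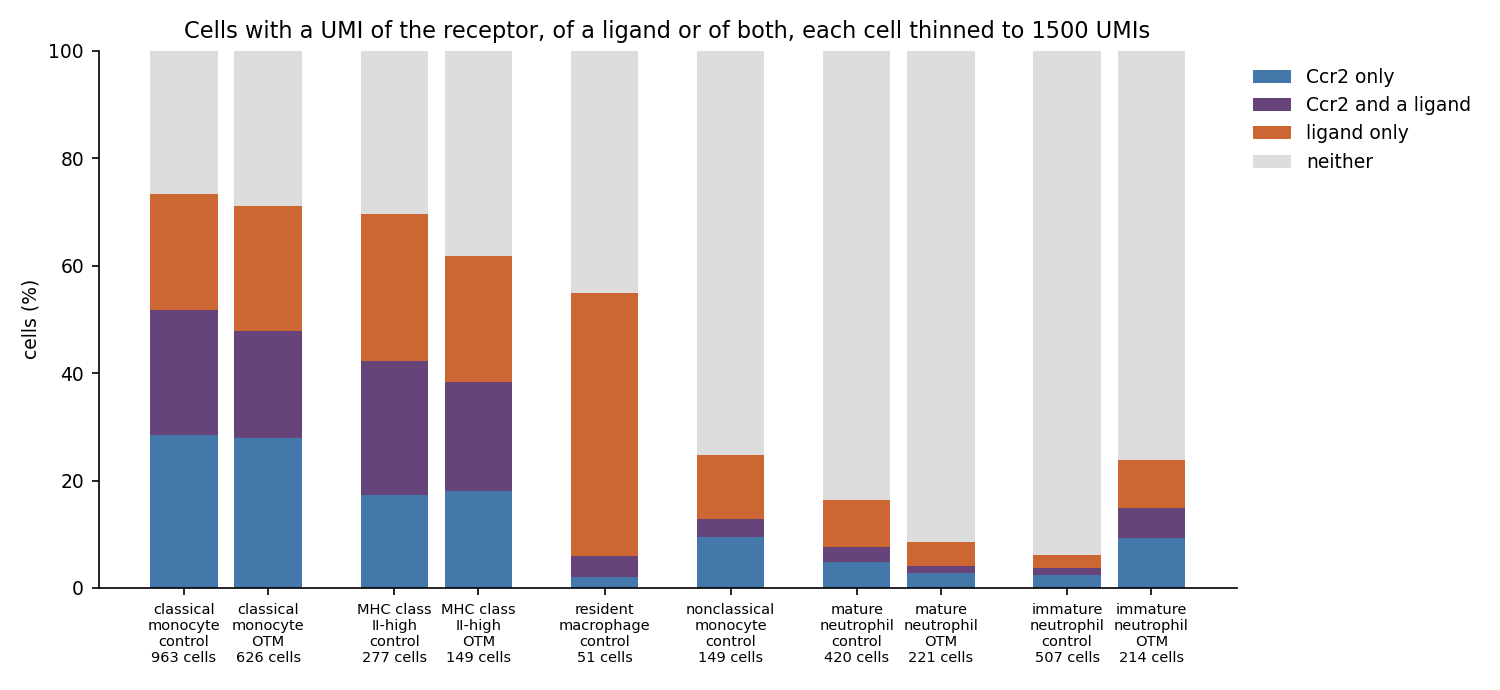
Share of cells (percent) with a UMI of Ccr2 only, of Ccr2 and a ligand, of a ligand only or of neither, by class and library, after thinning each cell to 1500 UMIs. In resident macrophage-like cells 49.0% had a ligand only and 1.96% the receptor only in this draw, beside 43.3% and 5.97% as the mean over all possible thinnings.

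Within classical monocyte-like cells, a cell with the receptor was about as likely to hold Ccl2 as one without. Among control classical cells at 1500 UMIs, Ccl2 was found in 43.1% of cells with a Ccr2 UMI (38.7 to 47.6) and in 42.5% of cells without (37.9 to 47.1). In OTM the values were 41.1% (35.5 to 46.9) and 44.3% (38.9 to 49.9). Over all monocyte- and macrophage-like cells the control shares were 44.7% (40.8 to 48.6) and 37.7% (34.3 to 41.1), whereas the intervals of the OTM shares, 37.2 to 47.7% and 37.2 to 46.9%, nearly coincided. The mean over all possible thinnings narrowed the control gap to 44.3% and 39.1%, and gave 41.6% and 41.7% in OTM. The control shares over all classes include nonclassical cells, which were low for both genes, and the part of this in the gap was not tested. Within control MHC class II-high cells the shares were 53.8% (44.4 to 63.1) with and 44.4% (36.5 to 52.4) without the receptor. In OTM they were 49.1% (35.6 to 62.7) and 33.7% (24.2 to 44.3). As the mean over all possible thinnings they were 47.1% and 47.8% in control and 44.7% and 41.5% in OTM. Outside the monocyte- and macrophage-like cells the shares did differ: among neutrophil- and progenitor-like cells Ccl2 was found in 37.3% of control cells with a Ccr2 UMI (24.1 to 51.9) and 4.95% of those without (3.63 to 6.56), and in 34.1% (20.1 to 50.6) and 6.38% (4.28 to 9.09) in OTM. Of the neutrophil- and progenitor-like cells with both genes, 11 of 14 in OTM and 7 of 19 in control were immature neutrophil-like. That OTM cluster also carried monocyte genes, as given above, and the part of monocyte-like cells in these shares was not tested. Over all kept cells the shares were 44.1% and 19.8% in control and 41.6% and 23.8% in OTM. The neutrophil-like cells, most of which had neither gene, enter the second share. Among monocyte- and macrophage-like cells Ccl7 was found in 4.86% of control cells with a Ccr2 UMI and 5.99% of those without, and in 3.09% and 3.10% in OTM.

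Cells with Ccl2 held Ccl7 more often than cells without. In control monocyte- and macrophage-like cells Ccl7 was found in 8.52% of cells with a Ccl2 UMI (6.39 to 11.1) and in 3.40% of those without (2.29 to 4.85). In OTM it was found in 5.50% (3.29 to 8.56) and 1.34% (0.493 to 2.89). Both libraries showed this order, with intervals that did not overlap. It was also the order within control classical cells, at 6.07% (3.96 to 8.83) and 2.90% (1.67 to 4.67), whose intervals overlap. In OTM classical cells the shares were 3.73% (1.80 to 6.75) and 0.279% (0.00707 to 1.55), whose intervals do not. As the mean over all possible thinnings these OTM shares were 2.33% and 0.772%. Ccl12 was found in 5 of 24 OTM cells with a Ccl7 UMI (20.8%, 7.13 to 42.2) and in 1.07% of those without, and in 3 of 79 control cells with a Ccl7 UMI (3.80%, 0.790 to 10.7) and 1.54% of those without. The control draw was low: as the mean over all possible thinnings the shares were 6.13% and 1.35% in control and 24.9% and 1.10% in OTM.

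As OTM had no resident macrophage-like cluster, cells of that kind were looked for by the C1q genes, which code for complement component C1q and mark tissue macrophages. At 1500 UMIs, 50 control and 13 OTM monocyte- and macrophage-like cells had at least 2 UMIs of C1qa, C1qb and C1qc together, 1362 and 757 had none, and 28 and 5 had 1. In the C1q-high cells Ccl7 was at 613 CPM in control (449 to 818) and 1949 CPM in OTM (1379 to 2675), and Ccl12 at 533 CPM (381 to 726) and 667 CPM (355 to 1140). In cells without C1q Ccl7 was at 74.9 CPM (63.5 to 87.7) and 27.3 CPM (18.5 to 38.8), and Ccl12 at 6.36 and 22.9 CPM. In both libraries, then, the 2 ligands were higher in C1q-high cells. Few cells carried these counts: 5 of the 13 OTM cells (38.5%, 13.9 to 68.4) and 11 of the 50 control cells had a Ccl7 UMI. A single OTM cell held 29 of the 38 Ccl7 UMIs. A Ccl12 UMI was found in 3 of the 13 OTM and 11 of the 50 control cells. Of the 13 OTM Ccl12 UMIs a single cell held 10. Without the richest cell of each library the C1q-high levels were 463 CPM in control (320 to 646) and 500.0 CPM in OTM (229 to 949) for Ccl7, and 367 CPM (242 to 534) and 167 CPM (34.4 to 487) for Ccl12. Ccr2 was found in 3 of 50 C1q-high control cells (1.25 to 16.5%) and in 5 of 13 in OTM (38.5%, 13.9 to 68.4), intervals that overlap. Ccl2 was at 840 CPM (645 to 1075) in control and 1590 CPM (1080 to 2257) in OTM C1q-high cells, against 770 and 883 CPM in cells without C1q. Without the richest cell of each library the C1q-high levels of Ccl2 were 667 CPM (493 to 881) and 1056 CPM (636 to 1648). Both intervals then cover the levels in cells without C1q.

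**Figure D3:**
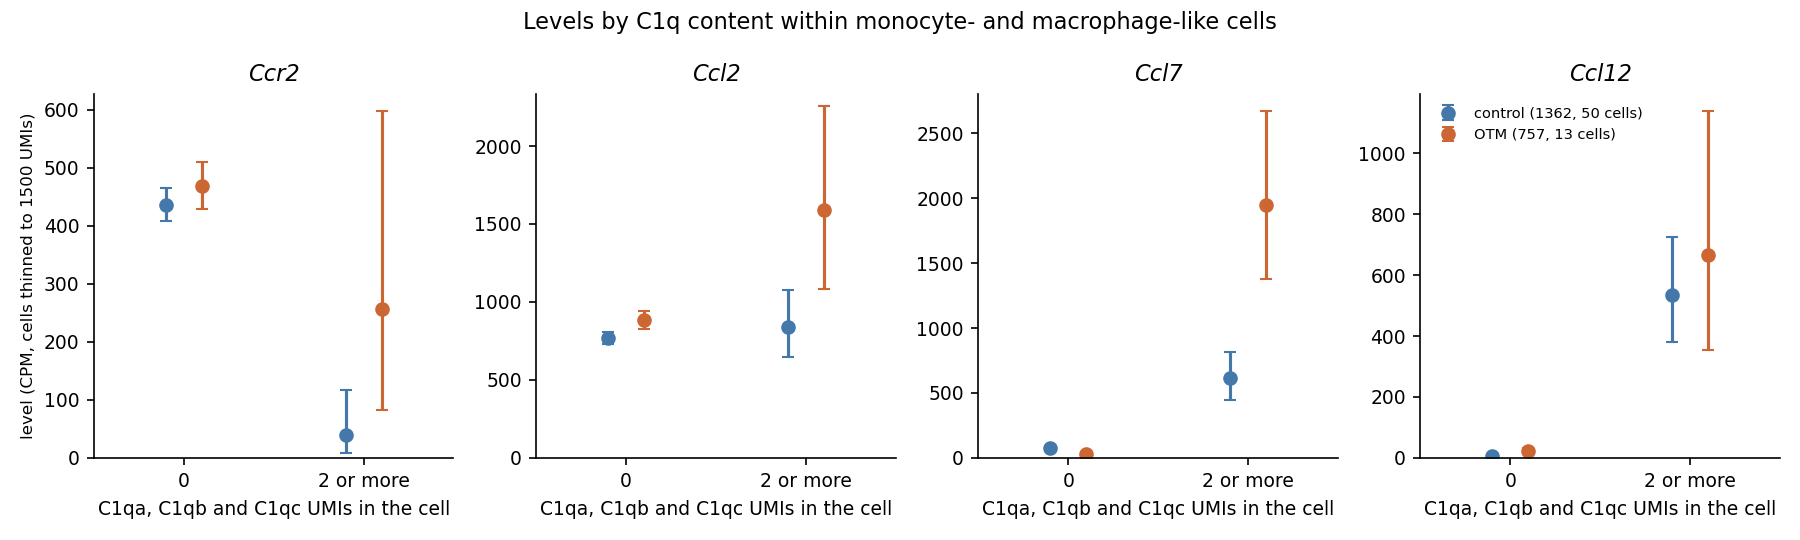
Level of each gene (vertical axis, CPM at 1500 UMIs a cell, exact Poisson 95% intervals) in monocyte- and macrophage-like cells with 0 or with 2 or more C1q UMIs (horizontal axis), control in blue and OTM in orange. Ccl7 and Ccl12 are higher in the C1q-high cells of both libraries, and the 13 OTM cells give wide intervals.

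Set against control, the OTM levels of the receptor and of Ccl2 within classical cells differed by less than counting error with the main cell filter. The OTM to control ratio there was 1.01 for Ccr2 (0.954 to 1.07) and 1.02 for Ccl2 (0.980 to 1.07), and in MHC class II-high cells 0.951 (0.833 to 1.08) and 1.04 (0.959 to 1.14). Over all monocyte- and macrophage-like cells the ratios were 1.11 (1.05 to 1.17) and 1.09 (1.05 to 1.13), and over all kept cells 1.26 (1.20 to 1.32) and 1.25 (1.20 to 1.30). These sums also carry the makeup of each library, since fewer cells of a type and less RNA per cell cannot be told apart in a sum. With the other reading of the cell filter they turned, to 0.976 and 0.962 in monocyte- and macrophage-like cells and to 0.956 and 0.942 over all cells. Within classes that filter gave lower OTM levels too. Classical cells then held 458 CPM Ccr2 in control (440 to 477) and 423 CPM in OTM (407 to 439), and 787 CPM (763 to 811) and 736 CPM (715 to 758) Ccl2. MHC class II-high cells held 405 CPM (372 to 439) and 289 CPM (268 to 310) Ccr2, and 934 CPM (885 to 986) and 657 CPM (625 to 689) Ccl2. None of these 4 pairs of intervals overlap. A neutrophil transcript moved with the MHC class II-high values: with that filter S100a8 was at 70868 CPM in the OTM cluster and 22480 CPM in the control cluster, beside 8502 CPM in the OTM cluster of the main filter, and Csf1r was at 174 CPM in OTM and 225 CPM in control. Their part in the lower levels was not tested.

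Ccl7 was lower in OTM over all kept cells and in classical cells, but not in every class. Lower levels were also the commoner direction over all genes with at least 100 UMIs: 14.4% of them were over 1.5-fold lower and 6.76% over 1.5-fold higher in OTM over all kept cells, 15.5% and 6.61% in classical cells and, the other way round, 5.52% and 9.81% in MHC class II-high cells. Over all kept cells it was at 60.5 CPM in control and 44.2 CPM in OTM, a ratio of 0.730 (0.639 to 0.834). In monocyte- and macrophage-like cells the ratio was 0.652 (0.569 to 0.745), a level 1.53-fold lower, or 0.409 (0.345 to 0.483) with classes from marker UMIs, and in classical cells 0.552 (0.438 to 0.695), where control held 219 and OTM 117 UMIs. Without the richest cell of each library the classical ratio was 0.396. In MHC class II-high cells the ratio was 1.18 (0.983 to 1.42), but a single OTM cell held 105 of the 214 UMIs and without the richest cells it turned to 0.716 (0.564 to 0.904). With the other cell filter the MHC class II-high level was 178 CPM in either library. The C1q-high cells described above went the other way, with 613 CPM in control (449 to 818) and 1949 CPM in OTM (1379 to 2675), a gap that rested on 1 OTM cell, since without the richest cell of each library the values were 463 and 500.0 CPM. The sums over monocyte- and macrophage-like cells also carry makeup: 154 of the 638 control UMIs lay in the resident macrophage-like cluster, which OTM lacked. The kept OTM cells held 57.9% of the Ccl7 UMIs of all deposited OTM barcodes, against 97.4% in control, where the barcodes left out had 52.8% of all OTM and 26.6% of all control UMIs.

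Ccl12 did not differ beyond counting error over all monocyte- and macrophage-like cells, where the ratio was 1.09 (0.884 to 1.35), but was slightly higher in OTM over all kept cells (1.24, 1.01 to 1.52) and with classes from marker UMIs (1.32, 1.04 to 1.68). The value over all kept cells fell within counting error with the other cell filter (1.03, 0.852 to 1.25) and without called doublets (1.18, 0.963 to 1.45). In MHC class II-high cells it was 8.40 (4.82 to 15.7), from 15 control and 87 OTM UMIs, and 10.3 without the richest cells. This ratio too rested on few cells, as 2 OTM cells held 50% of the 87 UMIs. At 1500 UMIs 7 of 149 OTM and 4 of 277 control MHC class II-high cells had a Ccl12 UMI. With the other cell filter the levels were 10.4 CPM in control (5.81 to 17.1) and 54.7 CPM in OTM (45.9 to 64.7). These are not like populations: the OTM MHC class II-high cluster also carried resident macrophage genes, whose 10 markers summed to 6758 CPM there and 2674 CPM in the control cluster, led by Apoe in both, and the part of this in the ratio was not tested. In classical cells the ratio of 1.87 (1.29 to 2.73) rested on 1 OTM cell with 48 of 85 UMIs, and without the richest cells it was 1.01 (0.623 to 1.63).

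**Figure D4:**
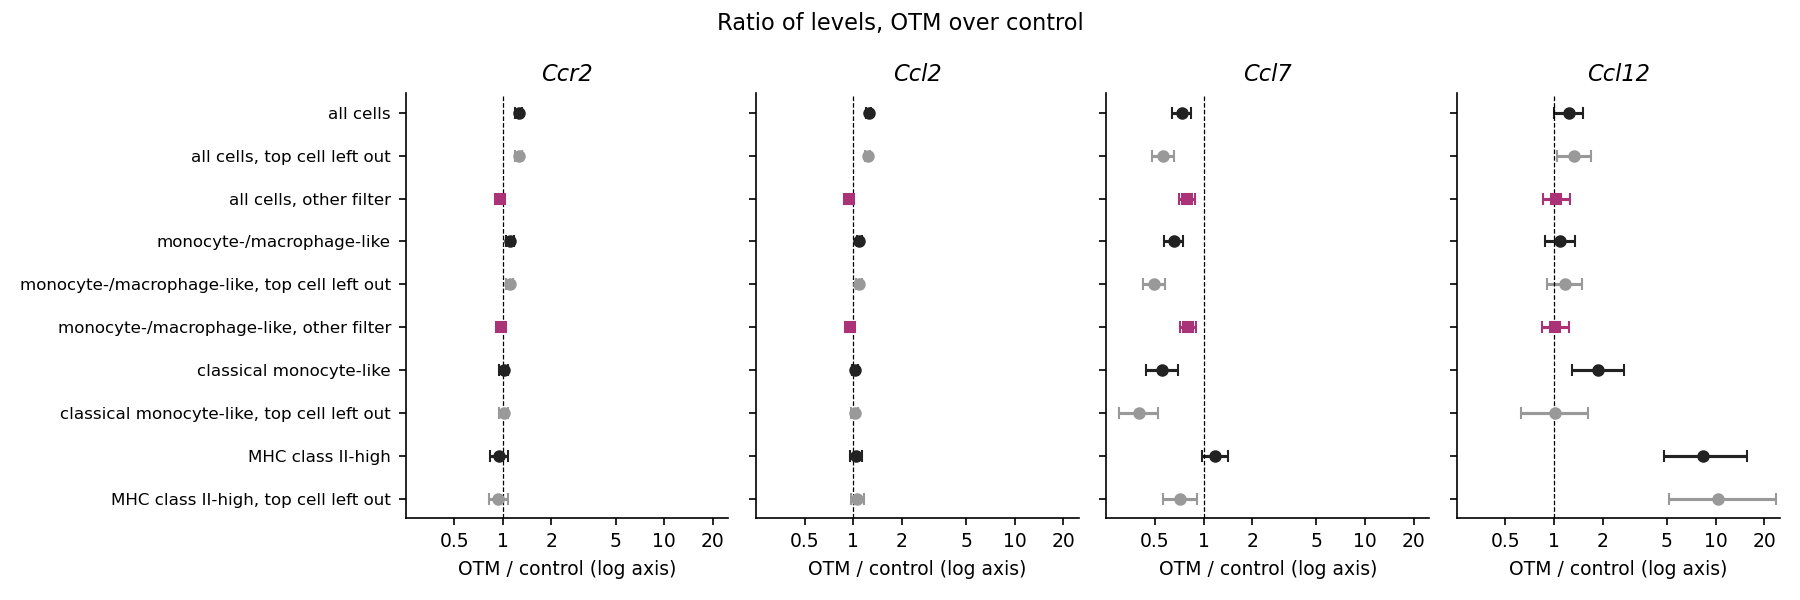
OTM to control ratio of the level of each gene (horizontal log axis) over all cells and within classes; black points use every cell, grey points leave out the cell with the most UMIs of the gene in each library, purple squares (in the rows for all cells and for monocyte- and macrophage-like cells) use the other cell filter, and bars are exact 95% intervals for counting error. Ccl7 lies below 1 in every row but the MHC class II-high one with all cells, and the classical Ccl12 ratio of 1.87 falls to 1.01 without the richest cell.

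The other CC chemokines of the monocyte- and macrophage-like cells were taken from lists of the pathway. Of 6231 genes with at least 100 UMIs over both libraries, 5.81% were over 1.5-fold higher in OTM and 14.0% over 1.5-fold lower, with a median ratio of 0.923. Of 19 CC ligand genes 9 reached 100 UMIs: 3 of them were over 1.5-fold higher, 2 lower, and their median ratio was 1.45. The higher ones were Ccl4 (1.90), Ccl5 (1.95) and Ccl9 (1.71), of which Ccl4 and Ccl5 code for attractants of T cells and monocytes and Ccl9 for a ligand of CCR1. Ccl3 and Ccl6, which code for ligands of CCR1 as well, had ratios of 1.49 and 1.45. The lower ones were Ccl7 and Ccl24, an eosinophil attractant that binds CCR3 (0.567, from 93 and 42 UMIs). Beside these values Ccl2 and Ccl12 were at 1.09 each. In classical cells 5 of 8 ligand genes were higher and 1 lower (median ratio 1.69), beside 6.61% and 15.5% of all genes. In MHC class II-high cells 5 of 8 were higher and none lower (median ratio 1.82), beside 9.81% and 5.52% of all genes.

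Among the CC receptor genes Ccr1, which codes for a receptor of monocytes and neutrophils, was at 229 CPM in control and 467 CPM in OTM (ratio 2.04), beside Ccr2 at 1.11. Ccrl2, an atypical receptor that binds chemerin and does not signal, was the only 1 of 5 related receptor genes with 100 UMIs, at 980 CPM in control and 1687 CPM in OTM (1.72).

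**Figure D5:**
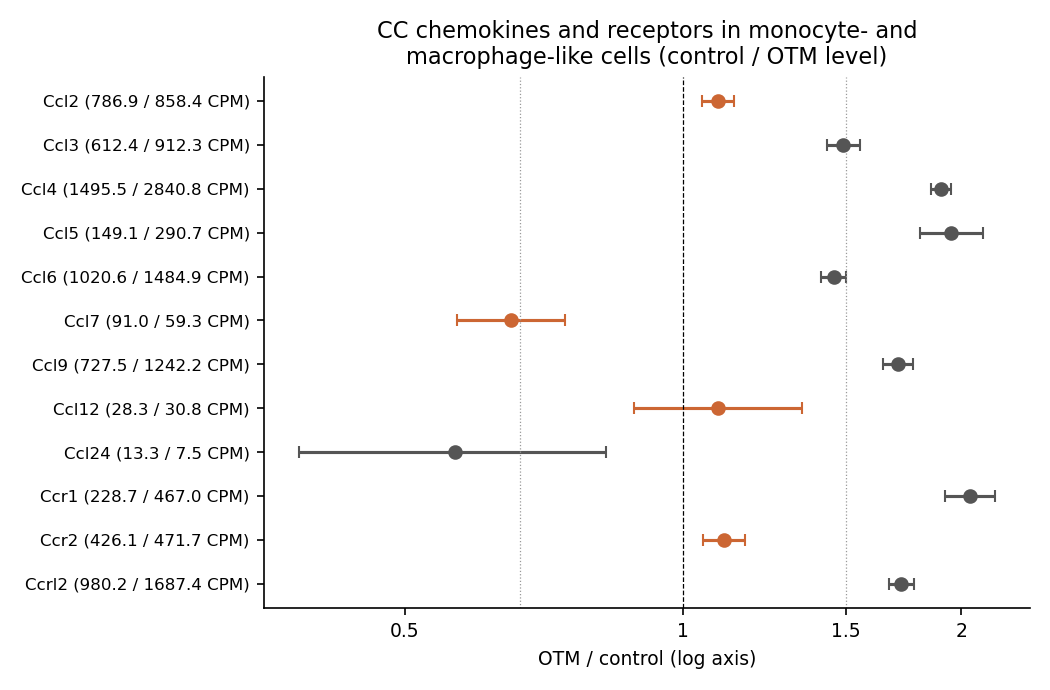
OTM to control ratio (horizontal log axis, exact 95% intervals for counting error) of CC ligand and receptor genes with at least 100 UMIs in monocyte- and macrophage-like cells, with both levels beside each name; the 4 genes of the report are orange and dotted lines mark 1.5-fold. Ccr1, Ccl4, Ccl5, Ccl9 and Ccrl2 lie to the right of Ccr2 and Ccl2, and Ccl7 and Ccl24 lie below 1.

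Genes that act below the receptor are set beside the 5.81% of all genes that were higher and the 14.0% that were lower. Of 12 signal transduction genes 11 reached 100 UMIs, none was over 1.5-fold higher and 2 were lower: Adrbk1 (0.548), the older symbol of the receptor kinase gene Grk2, and Prkcd (0.630), a protein kinase C gene. Their median ratio was 0.952, and Gnai2, which codes for the inhibitory G protein subunit that CCR2 couples to, was at 1.10. Of 8 trafficking genes 7 reached 100 UMIs, with 3 lower and none higher: Cxcr4, which codes for the receptor that holds leukocytes in marrow (0.327), Itgal, an integrin gene (0.376), and Cx3cr1, a chemokine receptor gene of nonclassical monocytes (0.380). OTM had no nonclassical monocyte-like cluster at resolution 0.6, and the part of that in the Cx3cr1 and Itgal values was not tested.

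Of 11 genes that act on Ccl2 transcription or decay, all reached 100 UMIs, 2 were higher and 2 lower, with a median ratio of 0.914, beside 5.81% and 14.0% of all genes. In MHC class II-high cells 3 of 10 were higher and 1 lower, with a median ratio of 1.21. Zfp36l1, which codes for a protein that promotes decay of AU-rich transcripts, was at 113 CPM in control and 365 CPM in OTM (3.22), and Nfkbia, an inhibitor and target of NF-κB, was at 1.52. The lower ones were the AP-1 genes Fosl2 (0.506) and Jun (0.641). Of 14 immediate early genes, which also rise during tissue dissociation, 2 were higher (Ier3 at 1.97, Socs3 at 1.78) and 6 lower (median ratio 0.750), beside 5.81% and 14.0% of all genes, with the lowest ratios for Hspa1b (0.187), Hspa1a (0.257), Atf3 (0.454) and Egr1 (0.571). MHC class II-high cells went the other way for this list, with 5 of 12 genes higher, none lower and a median ratio of 1.43, where 9.81% of all genes were higher and 5.52% lower. Beside these values Ccl2 itself was at 1.09 over all monocyte- and macrophage-like cells, and the part of dissociation in them was not tested.

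Across the 19 clusters, Ccr2 and Ccl2 had like profiles and so did Ccl7 and Ccl12, given here as a description over clusters of 2 libraries. Pearson's r of log2(CPM + 10) was 0.933 between Ccr2 and Ccl2 and 0.863 between Ccl7 and Ccl12, against 0.535 between Ccr2 and Ccl7 and 0.352 between Ccr2 and Ccl12. Of 5339 genes with at least 200 UMIs, those most like Ccr2 were Ms4a6c (0.976), Ms4a4c (0.973), Pld4 (0.967), Rassf4 (0.966) and Msr1 (0.964). Those most like Ccl2 were Tgfbi (0.962), Ctsc (0.961), Ms4a6c (0.956), Irf5 (0.955) and Evi2a (0.953). For Ccl7 they were Cxcl16 (0.922), Plbd2 (0.901), Ms4a7 (0.894), Nrp2 (0.887) and Rab7b (0.872). For Ccl12 they were Pld3 (0.889), C1qc (0.884), Pf4 (0.877), Ms4a7 (0.872) and Ccl7.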

How the data were processed

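The authors deposited raw UMI counts per gene and cell barcode, not normalized, for 1 control and 1 OTM library (2863 and 2058 barcodes, 14620877 and 16500733 UMIs). The submitters' processing notes name Cell Ranger 3.0.0, Seurat 3.0.0 and mm10. The study states more cells than these tables hold. No reads were realigned.

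The genes and lists were chosen with earlier results of these data known, and the thresholds for naming clusters with the data at hand. A cell was kept when each 1000 of its UMIs came with 200 or more genes and mitochondrial genes gave no more than 5% of its UMIs. The study's wording could also mean at least 200 genes a cell, an alternative that kept 2835 and 2052 cells. The main filter removed 419 control and 803 OTM barcodes with medians of 8395 and 9717 UMIs. The libraries shared 6 barcodes. Clustering followed the study's methods in Seurat 5.3.0 (R 4.3.3), library by library, with 12 and 8 principal components, resolution 0.6 and seed 42. A cluster was named when at least 3 markers of 1 list were among its top 10 genes, otherwise by the highest mean z-score. Since names were rebuilt, cell classes need not match the study's. No doublets were removed, and Scrublet (scanpy 1.11.5) was an alternative that called 99 control and 11 OTM cells.

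Levels are CPM of summed UMIs with exact Poisson intervals. Ratios have exact conditional binomial intervals and shares Clopper-Pearson intervals. Shares were compared after 1 random thinning of each cell to 1500 UMIs, and the mean over all thinnings, added after seeing the data, was computed exactly. No test was run, as cells are not replicates. Genes were named by a rule: the 4 genes, all CC ligand and receptor genes with at least 100 UMIs, at most 4 genes each way past 1.5-fold of the other lists, and the 5 genes most alike over clusters. A CC receptor gene that the rule would name is not reported here. Genes below these limits, and some given as background values, were named after their values were seen. Other alternatives were TMM scaling (edgeR 4.0.16), totals that leave out mitochondrial, hemoglobin and ribosomal protein genes, means of cells, resolution 1, classes from marker UMIs, thinning to 1000 UMIs and leaving out the richest cell. The computation was tested on simulated data.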

Additional observations from a re-analysis of the deposited data

Results flagged for a closer look

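Barcodes that the cell filter removed held Ccl7 signal that the comparisons above use only where the other cell filter is named. The 803 removed OTM barcodes held 250 Ccl7 UMIs, 42.1% of all Ccl7 UMIs of that table, against 17 UMIs in the 419 removed control barcodes. These barcodes held 52.8% of all UMIs of the OTM table and 26.6% of those of the control table, so the OTM share of Ccl7 was below their share of all UMIs. The Ccl7 levels were 28.7 CPM and 4.37 CPM. In OTM the UMIs lay in 23 barcodes, with 80 in a single barcode and 204 in the top 3. The receptor had 691 and 121 UMIs in the removed barcodes, Ccl2 1264 and 267, and Ccl12 57 and 1. What these barcodes are was not tested.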

How the results depend on the processing

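No paired analysis was possible because each group is 1 library. Of the alternatives to the 14 main values, 58 moved by less than counting error, 22 moved further and 4 changed direction. At least 200 genes a cell turned the ratio of Ccr2 to 0.956 over all cells and 0.976 in monocyte- and macrophage-like cells and that of Ccl2 to 0.942 and 0.962, and moved Ccl7 to 0.800 in the latter. TMM scaling, whose log2 factor was -0.13 over all cells and -0.15 in monocyte- and macrophage-like cells, moved Ccr2 to 1.38 and 1.23 and Ccl2 to 1.37 and 1.21. Means of cells gave 1.17 for Ccr2 and 0.842 for Ccl7 over all cells, and 0.781 for Ccl7 in monocyte- and macrophage-like cells. Classes from marker UMIs gave 1.04 for Ccl2 and 0.409 for Ccl7 there. Leaving out the richest cell, chosen after seeing the data, gave 0.561 for Ccl7 over all cells and 0.493 in monocyte- and macrophage-like cells. The share of Ccr2 cells with a Ccl2 UMI was 37.4% in control and 25.7% in OTM in 1 thinning to 1000 UMIs, and 37.2% and 34.7% as the mean over all such thinnings, added after seeing the data, so the low OTM share came from that draw. Resident macrophage-like over classical levels with classes from marker UMIs, which put 229 cells in the first, were 0.948 for Ccr2, 4.64 for Ccl7 and 14.9 for Ccl12. Without the richest cells the ratios were 0.871 for Ccl2, 9.19 for Ccl7 and 37.1 for Ccl12. The causes of the other changes were not tested. At this depth Ccl7 and Ccl12 levels rest on few cells.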

Other observations

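Classical monocyte-like cells rich in Ccl2 held more of the immediate early transcripts Fos, Jun and Atf3 than cells without Ccl2, in both libraries. At 1500 UMIs a cell, 241 control and 155 OTM classical cells had at least 2 Ccl2 UMIs, and 551 and 358 had none. These groups were chosen by their Ccl2 UMIs, so Ccl2 itself is not compared. Fos was at 1093 CPM in Ccl2-rich and 727 CPM in Ccl2-free control cells (interval of the ratio 1.32 to 1.71) and at 912 and 471 CPM in OTM (1.94, 1.60 to 2.33). Jun had ratios of 1.82 (1.41 to 2.36) and 2.12 (1.49 to 3.00), and the stress-response gene Atf3 of 1.75 (1.35 to 2.26) and 2.18 (1.32 to 3.59). Of the immediate early list 5 of 13 genes with at least 30 UMIs in control and 5 of 12 in OTM were over 1.5-fold higher and none was lower, where 5.54% of 3500 and 7.88% of 2449 genes were higher. The list did not move as a whole: its median ratios were 1.25 and 1.30, Junb was at 1.10 and 1.04 and Btg2 at 1.13 and 1.01. Socs3 (1.76 in control, 0.974 in OTM) and Nr4a1 (0.915 and 1.72) differed between the libraries. Zfp36, which codes for a protein that speeds decay of AU-rich transcripts, had ratios of 1.30 and 1.84.

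Ccl3 and Ccl4 were higher in the same cells in both libraries, by different sizes. Ccl3 had a ratio of 2.00 in control (1.68 to 2.39) and 1.34 in OTM (1.14 to 1.56), and Ccl4 of 1.28 (1.13 to 1.45) and 2.01 (1.83 to 2.20). Ccl7 had a ratio of 2.58 in control (1.42 to 4.74) and did not reach 30 UMIs in OTM. Ccl5 (0.838 in control, 1.39 in OTM), Ccl6 (0.948 and 1.05) and Ccl9 (1.06 in both) did not differ beyond counting error. Of the ligand genes with at least 30 UMIs, 2 of 6 in control and 1 of 5 in OTM were over 1.5-fold higher and none was lower. Of all genes 5.54% and 7.88% were higher. Ccr2 did not differ beyond counting error, at 1.08 (0.906 to 1.28) and 1.05 (0.834 to 1.30).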
